A study of Mus musculus with 12 samples.

Results

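In mouse Th2 cells, 4032 stretches of open chromatin were called in every ATAC-seq library of both genotypes and were smaller in the libraries labelled cKO. They are 13.3% of the 30383 shared regions that could have qualified. To find them, the peaks of the 6 ATAC-seq lists were joined wherever they shared at least 1 bp, which gave 114463 regions. All 6 libraries contributed a peak to 33531 of them. Among those, 32845 lay on autosomes and 30383 had a mean highest peak under 200 tags per 10000000. Each library's tags were then summed over a region, and a region was kept where the cKO-labelled mean was at most 0.6 of the WT mean and every cKO-labelled sum lay below every WT sum. Tags are sequenced fragment ends, and all tag values below are scaled to 10000000 tags per library. The members were thus chosen by the ATAC contrast itself, on summed tags, so their ATAC values are a description and carry no test. The mirror rule, with the genotypes exchanged, was met by 177 regions (0.583%).

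Th2 cells are the helper T cells whose cytokines drive allergic inflammation. The 12 libraries comprised 3 WT and 3 cKO (conditional knockout) libraries for RNA-seq, and as many for ATAC-seq. The series concerns NRF2, the antioxidant transcription factor encoded by Nfe2l2, in a mouse asthma setting, but the sample labels do not name the deleted gene, the Cre driver, or the age, sex or treatment of the animals. They also do not say whether libraries of a group came from separate animals, so p-values measure only the spread between these libraries. Nfe2l2 RNA, the check on the labels, was at 169.9, 155.3 and 147.4 normalized counts in WT and at 452.8, 326.4 and 391.5 in the libraries labelled cKO, and rose (log2 change 1.29, adjusted p = 0.0438 in limma). The genotype name is therefore used only as the label gives it.

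ATAC-seq marks DNA that a transposase can reach, mostly nucleosome-free promoters and distal enhancers. Promoters of active genes are open in many cell types, whereas distal enhancers are opened by the factors of a particular lineage and its activation state. In T cells these include AP-1 (Fos and Jun proteins), NFAT, RUNX, ETS, STAT and GATA factors. NRF2 pairs with small MAF proteins at antioxidant response elements, whose letters partly overlap those of the AP-1 site.

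Promoter letters were read for the regions that held a whole RefSeq promoter window, from 250 bases before to 50 bases after an annotated start (GRCm38.p6). Members held 194 such windows, of 182 genes. The 6 shown here belong to the gene with the largest RNA fall among member genes (Prcd), to Nqo1 and Aox1 of the NRF2 target list, to the cytokine receptors Il17rb and Il7r, and to Fyb, which held 7 members. Each line gives the 250 bases before the annotated start, read 5′ to 3′ on the gene's strand. An annotated start need not be an outer end of the gene. The Prcd region lies 2068 bp from the nearest end of a protein-coding gene. The Fyb window lies inside the gene, which spans from 6522796, a position covered by another member (chr15:6522562-6523489). Capitals mark matches, on either strand, to the letters TGACNNNGC of the NRF2 element, TGANTCA of AP-1, AGATAA of GATA factors, TTCNNNGAA of STAT factors, TGTGGT of RUNX factors or AGGTGTGA of T-bet. Some NRF2 and AP-1 matches can share bases.
Prcd (chr11:116656858-116657107, plus strand): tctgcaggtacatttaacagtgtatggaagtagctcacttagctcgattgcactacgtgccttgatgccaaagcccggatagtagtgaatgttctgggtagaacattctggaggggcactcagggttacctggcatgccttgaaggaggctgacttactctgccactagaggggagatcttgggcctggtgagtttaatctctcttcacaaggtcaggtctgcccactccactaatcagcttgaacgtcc
Nqo1 (chr8:107403206-107403455, minus strand): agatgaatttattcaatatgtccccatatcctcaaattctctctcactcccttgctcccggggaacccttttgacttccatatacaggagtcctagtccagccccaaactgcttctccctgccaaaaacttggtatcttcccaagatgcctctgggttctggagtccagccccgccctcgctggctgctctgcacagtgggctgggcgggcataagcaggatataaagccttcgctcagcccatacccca
Aox1 (chr1:58029719-58029968, plus strand): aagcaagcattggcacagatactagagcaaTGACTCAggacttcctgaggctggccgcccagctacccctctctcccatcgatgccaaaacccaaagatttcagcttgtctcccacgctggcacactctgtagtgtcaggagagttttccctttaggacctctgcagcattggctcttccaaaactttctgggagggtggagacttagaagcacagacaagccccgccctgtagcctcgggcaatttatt
Il17rb (chr14:30008897-30009146, minus strand): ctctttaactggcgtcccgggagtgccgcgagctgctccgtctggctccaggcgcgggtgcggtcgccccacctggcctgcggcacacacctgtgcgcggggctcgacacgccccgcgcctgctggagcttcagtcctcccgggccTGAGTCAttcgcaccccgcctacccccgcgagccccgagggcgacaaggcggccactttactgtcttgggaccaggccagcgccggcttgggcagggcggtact
Il7r (chr15:9529877-9530126, minus strand): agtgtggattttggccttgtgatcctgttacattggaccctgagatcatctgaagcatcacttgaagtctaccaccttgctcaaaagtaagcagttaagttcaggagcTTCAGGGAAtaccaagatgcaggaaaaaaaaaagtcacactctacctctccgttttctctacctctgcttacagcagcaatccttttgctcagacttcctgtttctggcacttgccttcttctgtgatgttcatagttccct
Fyb (chr15:6579597-6579846, plus strand): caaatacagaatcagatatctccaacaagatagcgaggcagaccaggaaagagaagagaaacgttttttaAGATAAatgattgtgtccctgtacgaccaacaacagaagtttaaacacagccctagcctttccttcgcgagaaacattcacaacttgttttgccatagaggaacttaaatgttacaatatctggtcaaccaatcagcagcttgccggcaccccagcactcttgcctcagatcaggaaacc

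The Aox1 and Il17rb windows each held 1 AP-1 match, Il7r held a STAT match and Fyb a GATA match. The letters of the Prcd and Nqo1 windows held none of the 6 motifs. The AP-1 letters were in 38 of the 194 windows inside members (19.6%), in 5.38% of the 9785 windows inside other eligible regions and in 7.81% of all 32851 windows. Base composition differed as well, with a median GC content of 50.0% in member windows, 61.7% in the others and 52.7% over all. Among windows of 40% to 55% GC the AP-1 share was 25.0% (32 of 128) in members and 10.6% in the others. RUNX letters were in 22.2% against 12.9% (16.8% of all windows), and in 24.2% against 18.1% within that GC range. The NRF2 element was in 16.5% against 14.3% (12.4% of all) and, in that range, in 15.6% against 11.6%. GATA letters were in 10.3% against 5.54% (11.2% of all), and in 12.5% against 12.6% within the range. STAT letters were in 8.76% against 6.46% (8.30% of all), and in 10.9% against 10.4% within the range. T-bet letters were in 2.06% against 0.910% (1.28% of all), and in 3.12% against 1.34% within the range, which is 4 member windows. Of the other motifs searched, the ETS and NFAT core GGAAA was in 71.9% against 73.7% within the range, CTTTGA of TCF and LEF factors in 22.7% against 20.2%, and the E-box CACGTG in 7.03% against 7.83%. The CTCF core was in 1 member window. A match is a description of letters, and these windows stand for the few members at promoters, not for the distal majority.

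The regions around these windows differed in how far they narrowed. At Prcd (chr11:116656572-116658647), a photoreceptor disc gene, summed tags were 155.5, 96.9 and 165.6 for WT, against 54.2, 50.8 and 50.2 under the cKO label, a ratio of 0.371. Its peaks covered 0.736 of the WT length at 0.501 of the WT tags per kb. At Nqo1 (chr8:107402803-107403994), which encodes a quinone reductase, the sums were 43.4, 29.2 and 51.4 against 15.9, 17.8 and 12.5, over 0.703 of the length and at 0.522 of the density. Both regions were thus lower mainly in density.

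At Il17rb, which encodes a receptor subunit for the Th2-promoting cytokine IL-25, the region also covers an end of the neighbouring gene Chdh (chr14:30008496-30010503). Its sums were 31, 14.7 and 25.9 in WT and 7.24, 11.3 and 8.75 in cKO-labelled libraries. Covered length there was 0.434 of WT while tags per kb were 0.888. At Fyb (chr15:6578934-6581407), which encodes the T cell receptor adaptor ADAP, the sums were 37.34, 46.4 and 33.84 against 18.6, 18.1 and 14.8. These 2 regions were lower mainly in length. At Il7r (chr15:9526934-9530666), the IL-7 receptor gene, the sums were 112.5, 101 and 119.8 against 68.6, 65.4 and 54.7, with length at 0.761 and density at 0.735. At Aox1 (chr1:58029405-58030506), which encodes an aldehyde oxidase, they were 28.7, 23.2 and 27 against 16.6, 11.8 and 15.6.

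ATAC libraries held 13149952 to 18327127 tags and 54133 to 75017 peaks. The share of tags in peaks was 25.22% in WT replicate 2 and 34.87% to 38.28% in the other 5 libraries. WT replicate 2 was the lowest WT library at 2961 members (73.4%), and without it 6923 regions met the rule, 3947 of the 4032 among them. RNA tables summed to 6431081 to 7372007 normalized counts. T cell markers made up 0.358% to 0.406% of the RNA total, with all 13 detected, while each of the 6 marker lists of other cell types took at most 0.0172%. In these bulk samples, fewer cells of a type and less RNA or accessibility per cell cannot be told apart. The Y-linked genes Ddx3y and Eif2s3y were at 132 ± 8.56 and 122 ± 5.06 normalized counts in WT (SD, n = 3). Both are listed at 0 in all 3 cKO-labelled RNA libraries. The X-linked RNA Xist was present in both groups, at 4047, 3879 and 3174 in WT against 6284, 4331 and 7069 under the cKO label. WT libraries thus held Y-linked and Xist RNA together, and the sex make-up of the samples was not determined. Sex and genotype cannot be told apart in the RNA. No ATAC list, WT or cKO-labelled, held a peak at the 4 Y-linked genes examined, so the lists do not show the sex of the ATAC samples. All members are autosomal, but sex and genotype cannot be told apart in the ATAC libraries either.

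Members were modest peaks in WT and near the calling limit in the cKO-labelled libraries. The median member sum was 32.1, 24.3 and 30.8 tags for WT, against 14.1, 14.7 and 13.3 under the cKO label. Other eligible regions had medians of 41.5, 29.2 and 39.1 against 31.7, 33.0 and 31.2. In unscaled tags, the median member held 41 to 45 in WT and 17 to 26 in cKO-labelled libraries. The calling threshold was 10 to 13 tags in the WT and 10 to 12 in the cKO-labelled lists. The exact Poisson 95% interval of the lowest of these, 17 tags, ran from 9.90 to 27.2, for counting error only. Listed peaks could hold fewer tags than this threshold, with a lowest scaled value of 5.08 to 6.01 per list. A region without a listed peak in 1 library is not among the members.

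Both the width and the density of the openings were lower. Median covered length per member was 948, 967 and 903 bp for WT, against 631, 655 and 629 bp under the cKO label. Median tags per kb of peak were 31.9, 23.8 and 32.3 against 20.6, 19.7 and 20.4. In other eligible regions the median lengths were 1132, 1079 and 1054 bp against 974, 1063 and 935 bp. Their median tags per kb were 34.8, 25.2 and 34.9 against 30.0, 28.8 and 30.3. Both overlapped there, whereas the choice of separated sums favours separated medians in members. Over members, the median ratio of cKO-labelled to WT was 0.514 for summed tags (range 0.191 to 0.60), 0.723 for length and 0.699 for tags per kb.

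Mean length was shorter in 3923 members (97.3%), against 70.0% of the other eligible regions. A sum is covered length times tags per kb, so a choice of low sums favours low values of both. Shares of members with lower length or density are thus a description only, and no support for the label of shrinking regions. Tags per kb were lower in 3813 (94.6%), against 52.2% of the others, and both were lower in 3704 (91.9%). Length alone was lower in 219 members and density alone in 109. Library by library the separation was weaker. Every cKO-labelled length was below every WT length at 1937 members (48.0%), and every tags per kb value at 1874 (46.5%). The choice of separated sums favours this too, and the same shares over other eligible regions were not computed. In the lists, 500 bp is close to the shortest peak that the caller gives. All 3 cKO-labelled libraries were at 500 bp or less at 583 members (14.5%), and all 3 WT libraries at 27, so the length ratio could go no lower there. A single peak in each of the 6 libraries was found at 3589 members (89.0%), so the loss was rarely a change in the number of peaks.

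**Figure D1:**
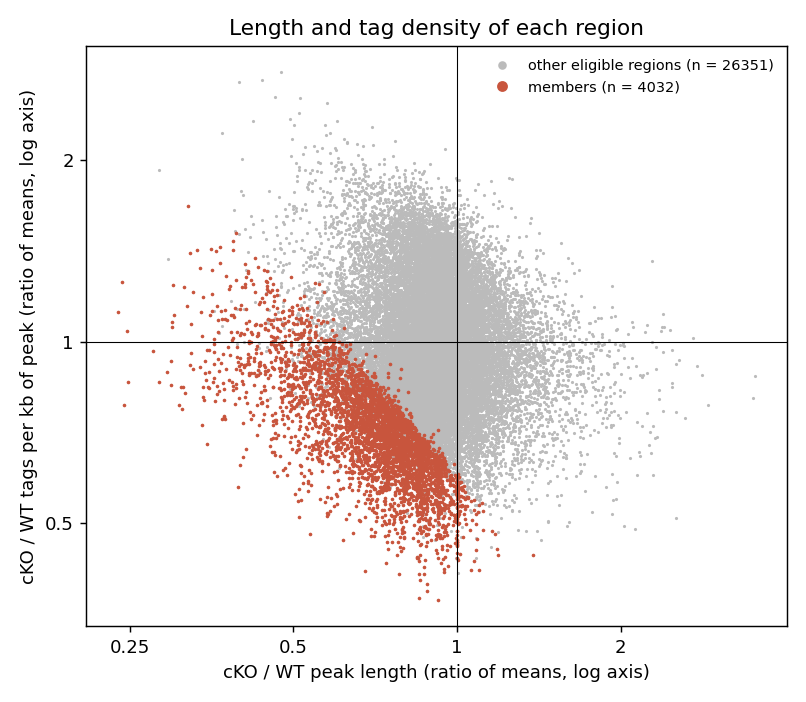
Covered peak length and tags per kb of peak, as cKO-labelled over WT mean ratios on log axes, for the member regions and the other eligible regions. Members lie mostly below 1 on both axes, with medians of 0.723 for length and 0.699 for tags per kb.

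How many regions met the rule depended on the scaling of the libraries. As deposited, the median ratio over all eligible regions was 0.860. When each library was divided by its own median over shared regions it was 1.09, and the rule was met by 1165 lower and 2521 higher regions. Members then had a median ratio of 0.651, and 1160 of the 4032 still met the rule. By tags per kb, 856 regions met the rule, 708 of them members, against 387 by the mirror rule. Both criteria at once were met by 338 members (8.38%). Of those 338, 1.78% covered an end of a protein-coding gene and 54.1% lay in a gene span, against 3.87% and 56.9% of all members.

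The members did not end at a natural gap. The 3 just inside the limit lay in Mtmr12 (ratio 0.59986), near Ercc6l2 and in Il18rap. The 3 just outside, with the other criteria met, lay nearest to Olfr9, Slc26a9 and Eea1, the last with a ratio of 0.60004. All 6 round to 0.60. In all, 4878 eligible regions had a ratio of at most 0.6, and at 846 of them the groups overlapped. Of the members, 1730 had a ratio of at most 0.5 and 46 of at most 0.3.

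The share of members was highest among regions of middling size. Eligible regions were ordered by WT mean sum and divided into 10 equal groups. The share went from 1.67% in the lowest to 26.3% in the fourth (22.8 to 27.8 tags) and was 0.691% in the highest (111 to 431 tags). The median ratio of all regions in these groups was 0.912, 0.706 and 1.15. With library medians divided out, the shares were 0%, 9.06% and 0.0987%, with the same middle peak. A very low region cannot fall far and still be called, which bounds the first group.

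**Figure D2:**
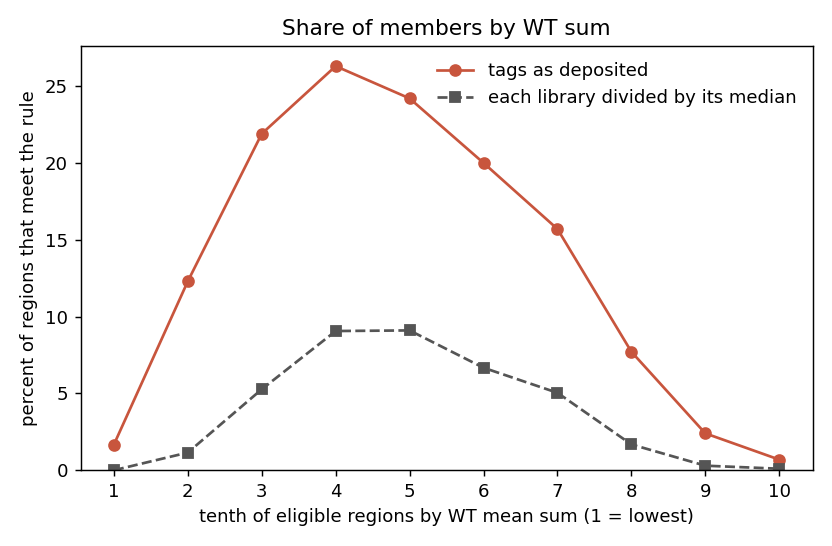
Percent of eligible regions that met the rule in each of 10 equal groups by WT mean sum, lowest to the left, with tags as deposited (solid line) and with each library divided by its median (dashed line). Both lines are highest in the fourth and the fifth group and close to 0 at either end.

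Members lay away from gene ends. An end of a protein-coding gene, either its start or its finish since the gene table gives no strand, was covered by 156 members (3.87%) and by 30.7% of the other eligible regions. At matched size, a WT mean sum of 20 to 40 tags, the shares were 3.44% and 19.2%. Between 10 and 50 kb from the nearest end lay 40.1% of members and 27.4% of the others, and beyond 50 kb lay 27.1% and 14.4%. Members overlapped the span of a protein-coding gene in 56.9% of cases, against 69.9%. The gene table has no exons, so intronic and exonic positions were not told apart.

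Seen from the other side, 1.89% of the 8237 eligible regions that cover a gene end were members, and 17.5% of the 22146 that do not. The 2 classes had median ratios of 1.10 and 0.774. Their length ratios were close, at 0.928 and 0.888, while their tags per kb went in opposite directions, at 1.17 and 0.883. WT replicate 2, with the lowest share of tags in peaks, is part of every WT mean here, and its part in the difference between the classes was not tested.

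**Figure D3:**
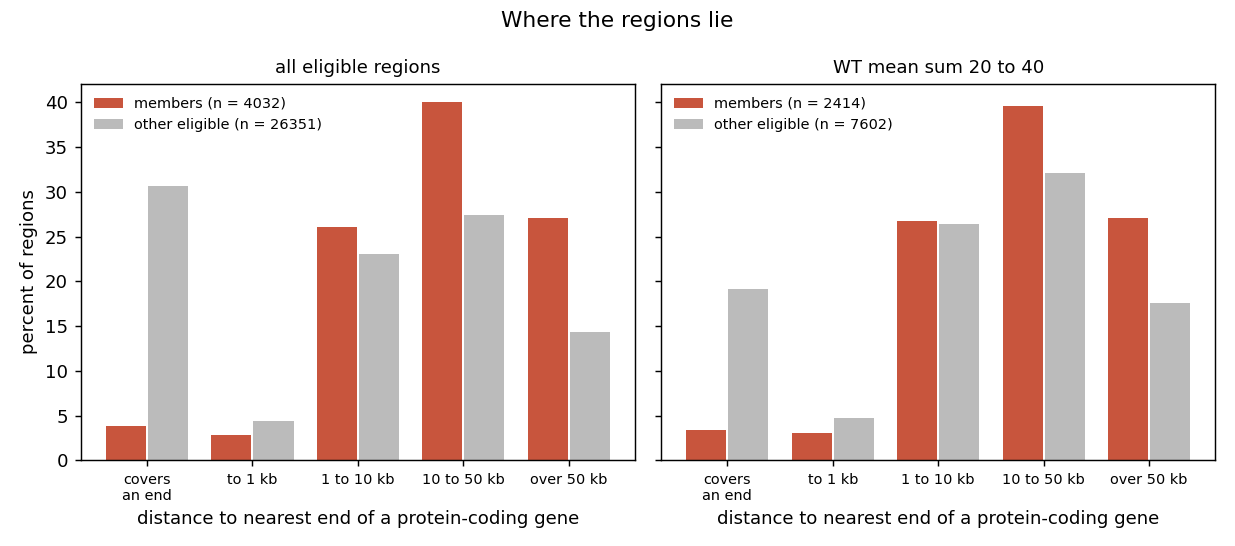
Percent of members and of other eligible regions in each class of distance to the nearest end of a protein-coding gene. Members cover an end in 3.87% of cases against 30.7%, and lie over 50 kb away in 27.1% against 14.4%.

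Members were spread over all 19 autosomes, from 10.1% of eligible regions on chromosome 4 to 16.5% on chromosome 16. Neighbouring eligible regions were somewhat more often members together. When the next eligible region was within 5 kb, it was a member in 16.2% of cases after a member and in 12% after another region. At 5 to 20 kb the shares were 17.7% and 12.2%, at 20 to 100 kb 16.8% and 12.8%, and over 100 kb away 17.8% and 14.5%. The share after a member thus did not rise with nearness. It was close to the 17.5% of members among all eligible regions that cover no gene end. Runs of consecutive members numbered 419 of 2, 94 of 3 and 19 of 4. Members were 13.3% of all eligible regions, and how many runs such a share gives without clustering was not computed. The runs are therefore a description of place only.

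The longest run was 8 consecutive eligible regions over 602 kb (chr5:90076840-90678790), nearest to Cox18, Ankrd17, the liver genes Alb and Afp, and Rassf6, with a ratio of summed means of 0.475. A run of 6 lay near Rbpj, the DNA-binding partner of Notch (chr5:53441077-53544155, ratio 0.489). Another of 6 lay near Fam43a (chr16:30634094-30722959, ratio 0.524). The runs of 5 lay around Rc3h1, which encodes the mRNA-decay protein Roquin, and from Fbxo48 over Plek to the calcineurin subunit gene Ppp3r1.

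The genes with the most members were long. Atxn1, which encodes a transcriptional co-repressor, spans 415 kb and held 8 members among 22 eligible regions. Lpp, which encodes a focal adhesion protein, held 7 of 12 over 599 kb. Runx2, a RUNX transcription factor, held 6 of 14 over 319 kb, and Ankrd44 6 of 17 over 284 kb. Their members had ratios of 0.470 to 0.594 in Atxn1, 0.495 to 0.595 in Lpp, 0.373 to 0.597 in Runx2 and 0.320 to 0.576 in Ankrd44.

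In Fyb, which spans 143 kb, 7 of the 12 eligible regions were members. The 7 had ratios of 0.556, 0.505, 0.460, 0.438, 0.435, 0.30 and 0.465 in order along the chromosome, and 4 consecutive ones lay within 16.1 kb (chr15:6574198-6590251). At the lowest, chr15:6588043-6590251, the mean sum was 36.2 ± 6.69 in WT and 10.9 ± 6.10 in cKO-labelled libraries (SD, n = 3). Its covered length was 0.345 of WT and its density 0.865.

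Among members with a WT mean of at least 50 tags, the 10 lowest ratios ran from 0.237 to 0.309. The lowest lay at the end of Pkd2l2, which encodes a polycystin-family channel, with sums of 65.7, 46.62 and 44.31 in WT and 11.7, 18.9 and 6.46 in cKO-labelled libraries. Cd274, which encodes the checkpoint ligand PD-L1, had 2 of the 10. The first (chr19:29382093-29386461) went from 100, 78.6 and 98.4 to 23.8, 23.09 and 19.78, with the covered length at 0.312 and tags per kb at 0.775 of WT. The second, over an end of the gene (chr19:29387309-29391736), went from 83.4, 43.4 and 37.2 to 19, 7.9 and 18.6, with length at 0.342.

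In Cd5 (chr19:10723002-10728479), a brake on T cell receptor signals, sums were 68.7, 47.2 and 87.1 in WT and 18.99, 19.71 and 14.8 in cKO-labelled libraries. Its tags per kb were 16.5, 15.4 and 16.0 against 15.9, 14.3 and 16.2 and so overlapped, while its length was 4152, 3069 and 5435 bp against 1196, 1377 and 915 bp. The same held 1173 bp from Rps12, a ribosomal protein gene (chr10:23780286-23784010), where the sums were 75.5, 46.7 and 59 against 14.1, 19.7 and 12.9, length was at 0.247 and density at 1.04. These are wide, low domains of which a short stretch was still called.

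Length and density were both lower in Snx29, a sorting nexin gene (chr16:11474509-11476511). There the sums were 54.7, 44.2 and 51.8 against 10.7, 20.9 and 13.7, and tags per kb were 43.3, 24.8 and 44.6 against 17.0, 23.5 and 21.0. Its peaks were 1263, 1782 and 1162 bp against 629, 889 and 651 bp, so neither measure overlapped between the groups. The region 23274 bp from Lilra6, a leukocyte immunoglobulin-like receptor gene (chr7:3938845-3940713), had tags per kb of 32.3, 42.1 and 31.8 against 20.5, 15.9 and 18.7, and its length was at 0.579 of WT. Of the 10, only these 2 also met the rule by tags per kb. All 10 met it with library medians divided out, which their choice as the lowest ratios favours. The others lay in Trim41, Ppp1r12a and near 1700016C15Rik, with ratios of 0.290, 0.293 and 0.297. Over all members the lowest ratio, 0.191, was in Ppp3cc (chr14:70280234-70282519), a catalytic subunit gene of calcineurin, the phosphatase that activates NFAT. Its sums were 49.1, 34.4 and 45.8 against 7.93, 8.74 and 7.98, and its peaks were 500 bp in all 3 cKO-labelled libraries.

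The members with the highest WT mean sums stayed large openings, and 4 of them are given. Over the ends of Mto1 and Eef1a1 (chr9:78472170-78479310), the latter the gene of a translation elongation factor, sums were 215.9, 156.6 and 230.9 in WT and 106.2, 132 and 117.1 in cKO-labelled libraries. At Ptger2, a prostaglandin E2 receptor gene (chr14:44985879-44992240), they were 200.76, 138.3 and 191.9 against 99.68, 122.7 and 95.1, with length at 0.530 and density at 1.14. The remaining 2 lay 54804 bp from the adhesion receptor gene Cd44 (ratio 0.534) and 41876 bp from Elk3, an ETS-family gene (0.577). The groups did not overlap at these regions, which the rule fixes. None of the 4 met the rule with library medians divided out, where their ratios were 0.672 to 0.761.

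**Figure D4:**
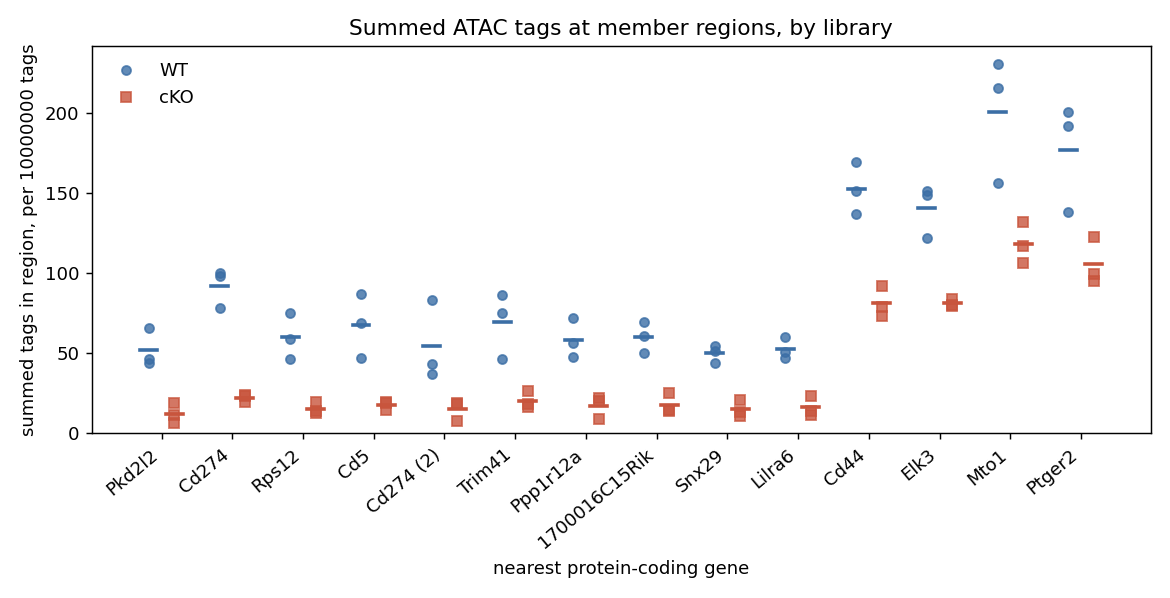
Summed ATAC tags per 10000000 in each of the 3 WT (circles) and 3 cKO-labelled (squares) libraries, with group means as bars, at the 10 members of lowest ratio with a WT mean of at least 50 (left) and 4 of those with the highest WT mean (right). The Cd274 region goes from a mean of 92.3 to 22.2 and the region of highest WT mean, at Mto1, from 201 to 118.

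Gene lists were read by the eligible regions that overlapped a listed gene or had it as nearest protein-coding gene within 50 kb. Against 13.3% of all eligible regions, and 17.5% of those that cover no gene end, 20.5% of the regions of T cell receptor signaling genes were members (32 of 156, in 13 of 22 genes). In Ptprc, which encodes CD45, the phosphatase that permits signaling, a region (chr1:138151137-138155684) went from 82.7, 58.7 and 61.6 to 20.34, 31.87 and 28.1. It was shortened more than thinned, with length at 0.443 and density at 0.886. A region 9052 bp from Cd3e, a receptor chain gene, went from 23.4, 16.4 and 24.4 to 9.66, 8.18 and 7.6, with density at 0.502. In Fyn, a Src-family kinase gene, the sums were 21.5, 16.4 and 24.4 against 11, 6.77 and 7.22. Other listed genes with members included Cd2, Cd28, Cd5, Lat, Lcp2, Prkcq, Ptpn22, Themis and Vav1.

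Checkpoint genes had 14 members of 66 regions (21.2%), in Btla, Cd274, Ctla4, Pdcd1lg2, Tigit, Tox and Tox2. A region 227 bp from Ctla4, which encodes a coinhibitory receptor (chr1:60916059-60917936), went from 41.5, 25.9 and 35.7 to 10, 7.05 and 21.7, so that cKO-labelled replicate 3 lay close to the lowest WT library. Calcineurin and NFAT genes had 12 of 76 (15.8%), among them 1 in the calcium sensor gene Stim2 with sums of 34.7, 23.7 and 22.2 against 10.7, 9.59 and 9.89. Genes of the AP-1 and early response list had 8 of 70 (11.4%), and TNF superfamily and costimulation genes 8 of 108 (7.41%). These shares run on both sides of the background, and no list was tested.

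Lineage genes of several helper fates had members. The Th2 list had 15 of 90 regions (16.7%), at Bhlhe41, Csf2, Il10, Il17rb, Il1rl1, Il4, Il5, Il9, Irf4 and Pparg. In Il10, an anti-inflammatory cytokine gene (chr1:131020396-131023379), sums were 44.5, 60.3 and 56.7 against 19.3, 34.13 and 16, with length at 0.390 and density at 1.10. The Th1 list had 10 of 54 (18.5%), and its lowest lay 18774 bp from Il12rb2, an IL-12 receptor gene (chr6:67395067-67396749), at 46.4, 33.3 and 32.3 against 9.66, 9.31 and 8.75. A pair of regions near Ifng, the interferon gamma gene, had ratios of 0.493 and 0.495. The regulatory T cell list had 11 of 60 (18.3%), the naive and memory list 19 of 127 (15%) and the Th17 list 6 of 44 (13.6%). Of the naive and memory list, Lef1, a TCF-family factor gene, held a region at 38.1, 55.4 and 60.41 against 23.5, 17.2 and 18.22, and Bach2, a repressor of effector genes, held 2 with ratios of 0.362 and 0.366.

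The NRF2 target list had 11 members of 68 regions (16.2%), at Abcc1, Abcc4, Aox1, Gclc, Me1, Nqo1, Srxn1, Tkt and Txnrd1. After Nqo1 the lowest lay in Abcc1, a glutathione-conjugate exporter gene (chr16:14379567-14381504), at 40.8, 22.6 and 44.7 in WT and 19.3, 12.4 and 15.58 in cKO-labelled libraries. A region 2801 bp from Srxn1, which encodes sulfiredoxin (chr2:152101492-152102723), went from 58.9, 30.6 and 52.6 to 18.6, 25.7 and 24. In both, WT replicate 2 was nearest to the cKO-labelled libraries. Among homing and adhesion genes 12 of 83 were members (14.5%), including one 21655 bp from the chemokine receptor gene Cxcr4 at 34.7, 30.3 and 27.4 against 11, 8.74 and 11.4. IL-2 family receptor and STAT5 feedback genes had 6 of 57 (10.5%), with a region near Il2ra at 81.5, 47.7 and 63.8 against 36.9, 32.4 and 29.3.

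Members also lay at genes that mark other cell types. Myeloid and dendritic marker genes had 7 of 31 regions (22.6%), at Cd14, Flt3, Itgam, Marco, Xcr1 and Zbtb46. In Flt3, a dendritic cell growth factor receptor gene, the sums were 40.4, 31.4 and 37.9 against 11.7, 17.8 and 11.4. The RNA of this marker list amounted to 0.00683%, 0.00851% and 0.00712% of normalized counts in WT, against 0.00629%, 0.00843% and 0.00599% under the cKO label. Of the genes named above, Zbtb46, Flt3, Xcr1 and Cd14 had mean RNA of 234, 69.2, 49.6 and 16.5 normalized counts in WT. Under the cKO label the means were 194, 76.6, 33.2 and 19.7, and the groups overlapped in each. Itgam, the integrin marker of the list, was lower, at 4.740, 1.016 and 0 against 0, 0.9995 and 3.340 normalized counts. Whether such regions come from other cells in the ATAC samples was not tested. B and plasma cell genes had 1 of 15, epithelial and stromal genes 1 of 18, and granulocyte and mast cell genes 0 of 5.

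RNA is the readout that the choice of regions did not use. Of 18074 genes tested with limma and Benjamini-Hochberg adjustment, 37 passed an adjusted p of 0.05 (0.205%), 31 lower (0.172%) and 6 higher (0.0332%). A member overlapped 1662 tested genes or lay within 1 kb of their ends. Of these, 4 fell and 0 rose (0.241% in either direction), close to the share of all genes. At an unadjusted p under 0.05 there were 243 (14.6%), against 12.1% of all tested genes and 14.1% of genes with an eligible region and no member.

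The median RNA log2 change of genes with a member was 0.11, with 61.2% positive, against 0.06 and 55% over all tested genes. Smaller regions in the cKO-labelled libraries were thus not matched by lower RNA over the set. Genes with a member were long, with a median span of 74.9 kb against 20.1 kb. Among genes of 50 to 100 kb the medians were 0.15 with a member and 0.14 with an eligible region but no member, among longer genes 0.16 and 0.13, and among those of 20 to 50 kb 0.05 and 0.07. Genes with 1, 2 and at least 3 members had medians of 0.10, 0.12 and 0.15, and median spans of 60.8, 129 and 227 kb. Where a member covered an annotated end of the gene (125 genes), the median was 0.01 and 1 gene fell.

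The 4 genes that fell were Prcd, Ncl, Odc1 and Hnrnpm. Prcd was at 551.6, 690.0 and 593.1 normalized counts in WT and 70.19, 77.92 and 96.12 in cKO-labelled libraries (limma log2 change -2.90 with an SE of 0.23, adjusted p = 2.30e-04), and it passed under all 14 alternative settings. Its region, shown by its letters above, was also a member by both stricter criteria. Ncl, the gene of the nucleolar protein nucleolin, was at 14320, 14466 and 17833 against 7856, 9613 and 8648 (limma log2 change -0.83 with an SE of 0.13, adjusted p = 0.0421). Its region covers an end of the gene (chr1:86339317-86344875), with sums of 88.4, 76.2 and 131 against 39.95, 51.6 and 30.05, and length at 0.542.

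Odc1, which encodes the first enzyme of polyamine synthesis, was at 7268, 5720 and 7090 against 3993, 3573 and 3888 (limma log2 change -0.80 with an SE of 0.14, adjusted p = 0.0438). Its member (chr12:17549195-17550082) was small, at 25.3, 12.8 and 18.4 tags against 8.62, 9.03 and 11. Hnrnpm, a splicing factor gene, was at 4935, 5071 and 5892 against 2805, 3573 and 2802 (limma log2 change -0.80 with an SE of 0.14, adjusted p = 0.0499), and its member (chr17:33662551-33663524) at 25.3, 19.6 and 24.8 against 13.5, 11.6 and 16. RNA groups did not overlap in any of the 4 genes. Ncl and Odc1 each missed the threshold in 6 of 14 alternative settings and Hnrnpm in 7, among them the fits that left out replicate 2 or 3 of WT, or replicate 1 or 3 of cKO. Over those fits the limma adjusted p ran from 0.0632 to 0.322.

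**Figure D5:**
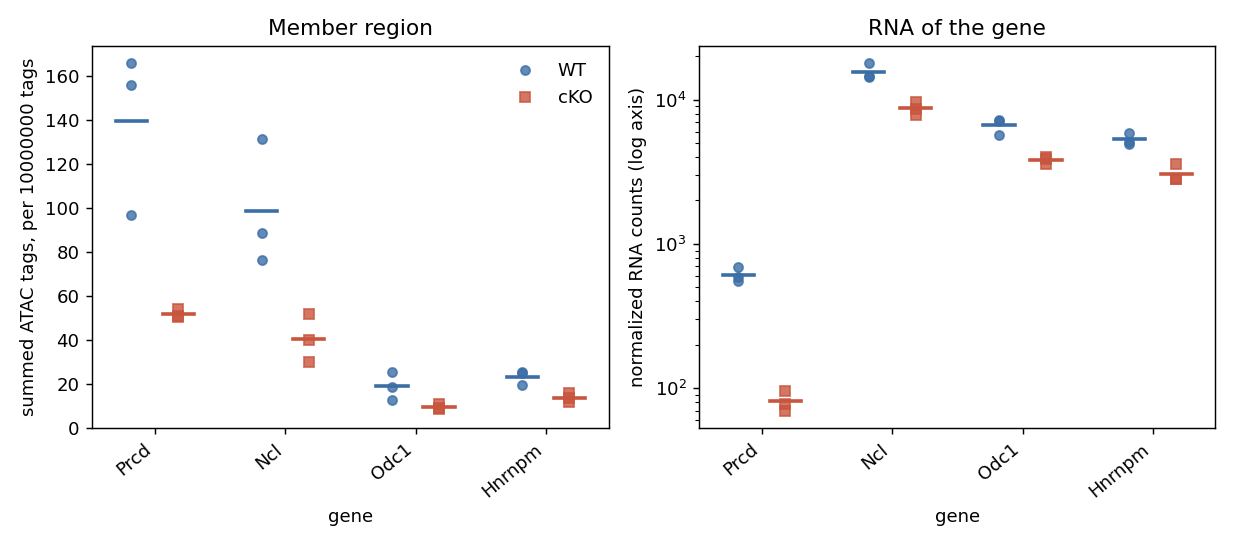
Summed ATAC tags per 10000000 at the member region (left, linear axis) and normalized RNA counts of the gene (right, log axis) in each WT (circles) and cKO-labelled (squares) library, with group means as bars, for the 4 member genes whose RNA fell. Prcd shows the widest gap in RNA, from a mean of 612 to 81.4 normalized counts.

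Genes at the lowest members had RNA differences of either sign, and those given here did not pass. Rps12 RNA was at 15896, 20327 and 18807 in WT, against 10504, 13614 and 10563 under the cKO label (log2 change -0.67, limma adjusted p = 0.0758), with no overlap. Rack1, a ribosomal scaffold gene that lies beside the Trim41 region, was at 14198, 16461 and 15145 against 11766, 12586 and 11697 (log2 change -0.34, limma adjusted p = 0.242), also with no overlap. Cd274 RNA was at 959.4, 782.5 and 809.8 in WT and 1203, 906.0 and 1257 in cKO-labelled libraries, overlapping and with a log2 change of 0.39 (limma adjusted p = 0.405), opposite in sign to its regions. Gm36043, a predicted gene that overlaps the first Cd274 region, was at 53.77, 20.49 and 30.29 against 108.2, 78.91 and 156.7 (log2 change 1.74, limma adjusted p = 0.114). Without strand information, reads of overlapping genes cannot be told apart. Cd5 RNA was at 6962, 5784 and 5767 against 7458, 5126 and 8175, and Ppp3cc RNA at 104.3, 128.2 and 102.6 against 132.8, 98.78 and 142.8, both overlapping. Of the genes at the members with the highest WT mean sums, Ptger2 had RNA at 625.0, 457.9 and 450.6 against 785.7, 570.7 and 989.9 (log2 change 0.59, limma adjusted p = 0.306).

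Fyb RNA was at 1140, 1064 and 1561 in WT and 744.8, 922.0 and 643.5 in the libraries labelled cKO. The groups did not overlap, but the log2 change of -0.70 (SE 0.20) had a limma adjusted p of 0.160. Other genes with many members showed small differences: 0.05 in Atxn1, 0.15 in Lpp, 0.21 in Runx2 and 0.30 in Ankrd44 (log2 changes, adjusted p of 0.559 to 0.932 in limma). Among the NRF2 targets with a member in or within 1 kb of the gene, 4 were tested, 0 passed and the median log2 change was -0.34. Over all 30 tested genes of that list 2 fell, 1 rose and the median was -0.20. Nqo1 was at 99.17, 38.47 and 55.23 against 40.18, 41.62 and 30.42 (log2 change -0.67, limma adjusted p = 0.571), and Txnrd1, the gene of a thioredoxin reductase, at 2708, 1853 and 1821 against 1495, 1002 and 1494 (-0.68, 0.187). Srxn1, with a member 2801 bp away, was at 155.7, 89.37 and 145.4 against 43.24, 30.42 and 46.99 (-1.65, 0.0820), with no overlap. Aox1 was at 13.93, 53.69 and 26.49 against 48.15, 59.32 and 43.26 (0.85, 0.537).

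In the other lists no gene with a member passed. T cell receptor signaling genes with a member had a median log2 change of 0.06 over 9 tested, 7 of them positive, equal to the 0.06 of all 22 genes of the list. Of the 21 tested Th2 genes 1 fell, which had no member in or within 1 kb of it, and the list's median was 0.06. Calcineurin and NFAT genes with a member had a median of 0.15 over 7, regulatory T cell genes -0.37 over 6 and checkpoint genes -0.01 over 4. Il17rb RNA was below the minimum for the test, at 8.484, 5.486 and 6.711 normalized counts in WT and 0, 0.9470 and 0 in cKO-labelled libraries, with no overlap. Il12rb2 was likewise near 0, at 2.883, 0 and 0 against 7.697, 5.138 and 4.072.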

How the data were processed

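The submitters' processing notes name HOMER 4.11, Bowtie2 2.3.5.1, RSEM 1.3.3, STAR, edgeR and DESeq2 with the mm10 build, without settings. The deposited RNA values are the authors' normalized counts per gene, a signal that is not whole, so the sequencing depth of RNA is unknown. Fold changes in the same table are the authors' deposited log2 values, and their p-value and adjusted p-value come with it. Per the file headers, each ATAC list was called by HOMER on 1 library in its histone style, at a Poisson p-value threshold of 0.001 with at most 1 tag per bp. Per the file headers, the tag count is a signal scaled to 10000000 tags, the peak score is a score, and a further column, not used, is a ratio of clonal enrichment.

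Regions were merged and summed in pandas 2.3.3 and numpy 2.4.6 under Python 3.11.15. Such sums move with the length called. RNA genes with a mean of at least 10 entered limma 3.58.1 (R 4.3.3; mean-variance trend, intercept and genotype) as log2(value + 1), and p-values were adjusted by Benjamini-Hochberg, with a threshold of 0.05; this scale understates changes of low genes. On simulated data over 18074 genes, 24 of 100 genes changed by a log2 of 1 were recovered and 63 of 100 changed by 2. Genes were placed by the GRCm38.p6 RefSeq table, which matched 15840 of the 18074 tested genes. Peak sequences were not analysed here, so motifs were read only in RefSeq promoter windows. Named regions were the 10 lowest ratios with a WT mean of at least 50, the 5 highest WT means (1 of them not reported here), 3 on either side of the ratio limit, up to 4 of lowest ratio per gene list, all in genes past the RNA test, and the 5 genes with the most members. Regions holding the printed windows, and the Txnrd1 and Il17rb RNA values, were chosen after values were seen. The members and lists were chosen with earlier results of these data known. Alternatives changed the merging, ratio limit, scaling, measure, peak lists, libraries, pseudocount, filter and normalization.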

Additional observations from a re-analysis of the deposited data

How the results depend on the processing

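The 4032 regions became 1730 at a ratio limit of 0.5, 6070 at 0.7, 1165 with library medians divided out, 856 by tags per kb and 712 with only the better-scoring 50% of each list. Leaving out each library gave 3440 to 6923, the highest without WT replicate 2. It stayed within 1.5 times under stricter merging (4027), without the height limit (4032), with equal totals in peaks (5458), by highest peak (4153) and with equal numbers of top peaks (3057). The 91.9% of regions lower in both length and density was 68.6% with medians divided out and 87.8% to 90.7% without each library. The 37 genes whose RNA changed became 6 without the mean-variance trend, 526 in the authors' deposited table, and 1 to 151 without each library (WT replicates 1, 2 and 3 left out: 100, 1 and 5; cKO replicates 1, 2 and 3 left out: 3, 151 and 3). Quantile normalization gave 17 higher and 16 lower, against 6 and 31. The 4 with a member became 1 without the trend, 48 in the authors' deposited table (23 higher, 25 lower), 1 to 12 without each library (12 without WT replicate 1 or cKO replicate 2, 1 without any of the others), and 2 and 1 with the members that also met the rule by median-scaled sums and by tags per kb, both added after seeing the data. With quantile normalization they were 2 higher and 2 lower. With the replicate number as a block the counts were 122 and 11 (4 higher, 7 lower). Same-numbered RNA libraries correlated at 0.12, 0.21 and -0.06 around their group means, and others at -0.27 to 0.22. With 3 libraries per group, these correlations cannot decide whether the numbers pair libraries. Pairing of the ATAC libraries was not checked. Low tag counts limit the precision at members, with a median of 17 to 26 unscaled tags in cKO-labelled libraries. The causes of these shifts were not tested.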
